A study of Homo sapiens with 8 samples.

Results

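The large histone gene cluster on the short arm of chromosome 6 was examined for KDM2A peaks and for regions of dimethylated H3K36 (H3K36me2). Its members were the protein-coding genes lying between bases 25900001 and 28000000 (GRCh38) whose symbols begin with H1-, H2AC, H2BC, H3C or H4C. The RefSeq annotation gave 53 such genes, of 19821 protein-coding genes on the autosomes and the X chromosome. They comprised 6 H1, 11 H2A, 14 H2B, 10 H3 and 12 H4 genes, and the same 2.1 Mb held 19 other protein-coding genes and 100 tRNA genes. The membership rule used symbol and position only and no measured value.

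The samples were neural progenitor cells induced from the embryonic stem cell line H9, which is human and long established. H3K36me2 was precipitated from cells with the KDM2A hairpin sh1, from cells with the KDM2A hairpin sh4 and from control cells (NC), and KDM2A from control cells only. Lentivirus carried the hairpins into the stem cells before they were induced, puromycin selection followed, and the labels give this treatment for every library. Every group was 1 library, so no value has a replicate error and no test between groups was possible. Intervals given below are exact 95% intervals for counting error only. The peak lists hold no RNA values, and the cell type and the knockdown of KDM2A were not checked here.

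These genes encode the replication-dependent histones, which supply new nucleosomes during DNA synthesis. Pairs of H2A with H2B and of H3 with H4 form the nucleosome core, and H1 binds the linker DNA between nucleosomes. Most of the genes have no introns, and many H2A and H2B genes lie head to head and share 1 promoter. KDM2A is a demethylase of H3K36me2, the mark carried on the tail of histone H3, and its zinc finger binds unmethylated CG-rich DNA.

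The members lay in 3 blocks separated by more than 200 kb. The first block ran from H1-1 to H4C8 (chromosome 6, 26017032 to 26285534) with 32 genes, the second from H2BC11 to H2AC12 (27132316 to 27147562) with 5 genes, and the third from H2BC13 to H2BC17 (27807479 to 27893891) with 16 genes. Members were short, with a median length of 487 bp, and only 5 of the 53 exceeded 2 kb. H2AC1 and H2BC1 lie outside the limits, in the left flank, and were not counted as members.

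Sequence boxes were more common in the promoters of the members than in those of other genes, but unevenly by class. RefSeq promoter sequence (GRCh38.p14) was matched for 48 of the 53 members, and the 250 bases before each start were searched on both strands. The TATA box (TATAAA) was found in 31 of 48 members (64.6%), against 9.19% of 15764 other protein-coding genes. In 24 members (50.0%) it lay on the gene's own strand 25 to 35 bases before the start, against 3.46% of the other genes. The CCAAT box (CCAAT) was found in 41 members (85.4%, against 34.3%). It was in every H1, H2A, H2B and H3 promoter searched, but in only 3 of 10 H4 promoters. No box particular to H3 or H4 genes was searched. The octamer (ATTTGCAT), which binds POU-domain factors, was found in 20 members (41.7%, against 1.55%), namely in 11 of 14 H2B, 8 of 10 H2A and 1 of 8 H3 genes and in no H1 or H4 gene. That H3 gene is H3C4, whose annotated start coincides with that of H2AC7. The H1 box (AAACACA) was found in all 6 H1 genes and in no other member, against 3.70% of the other genes. Windows of head-to-head genes overlap, so such genes share boxes.

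Promoters of an H1, an H2B and an H3 gene are printed to show these boxes, 5′ to 3′ on the strand of the gene and ending at the base before the start, with the boxes in capitals. H1-4 lies on the plus strand (window chr6:26156079-26156328), H2BC17 on the plus strand (chr6:27893175-27893424) and H3C1 on the plus strand (chr6:26020201-26020450). The H2BC17 window overlaps nearly all of the promoter window of H2AC17, which reads the other way, and its octamer and TATA box are spelled on that other strand.
H1-4: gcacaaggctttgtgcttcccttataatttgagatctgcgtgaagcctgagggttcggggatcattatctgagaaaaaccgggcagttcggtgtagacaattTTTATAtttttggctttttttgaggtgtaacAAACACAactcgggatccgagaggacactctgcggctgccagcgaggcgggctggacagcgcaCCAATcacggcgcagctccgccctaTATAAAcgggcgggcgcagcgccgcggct
H2BC17: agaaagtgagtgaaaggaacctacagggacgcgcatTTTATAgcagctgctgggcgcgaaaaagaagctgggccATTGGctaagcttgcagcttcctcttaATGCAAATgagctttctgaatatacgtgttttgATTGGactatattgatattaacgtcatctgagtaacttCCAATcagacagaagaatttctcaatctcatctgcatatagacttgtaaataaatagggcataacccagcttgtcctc
H3C1: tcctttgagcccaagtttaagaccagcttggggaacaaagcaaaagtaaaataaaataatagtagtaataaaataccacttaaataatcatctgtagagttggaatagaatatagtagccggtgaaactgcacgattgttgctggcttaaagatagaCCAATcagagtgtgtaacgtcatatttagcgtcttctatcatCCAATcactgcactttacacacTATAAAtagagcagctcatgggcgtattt

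The promoters held fewer CG dinucleotides than those of most genes. Members had a median of 8 CG in the 250 bases (range 3 to 19), against a median of 17 in the other protein-coding genes. By class the median was 11 in H1, 7.5 in H2A, 6 in H2B, 5 in H3 and 11 in H4 genes. The promoter of H4C12 (minus strand, window chr6:27831561-27831810, 14 CG) is printed because it is the only one overlapped by a KDM2A peak. The promoter window of H4C11, which had no listed peak within 2 kb, differs from that of H4C12 at only a few bases. The promoter of H2BC3 (minus strand, chr6:26043714-26043963, 3 CG) is one of the 2 with the fewest CG, the other being H4C9. Here capitals mark each CG.
H4C12: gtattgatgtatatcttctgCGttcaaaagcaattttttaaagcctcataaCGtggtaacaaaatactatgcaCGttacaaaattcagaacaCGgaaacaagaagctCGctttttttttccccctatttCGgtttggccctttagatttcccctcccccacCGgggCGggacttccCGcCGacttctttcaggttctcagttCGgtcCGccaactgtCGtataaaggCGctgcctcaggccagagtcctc
H2BC3: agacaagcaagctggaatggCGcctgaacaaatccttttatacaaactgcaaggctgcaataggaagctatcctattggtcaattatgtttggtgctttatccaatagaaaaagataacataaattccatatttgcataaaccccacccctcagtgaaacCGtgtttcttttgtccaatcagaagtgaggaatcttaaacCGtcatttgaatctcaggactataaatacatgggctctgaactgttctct

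CG content overlapped between members with a KDM2A peak and those without one. The median was 8 CG in 23 members with a peak within 2 kb (interquartile range 6 to 9) and 9 CG in 25 members without one (5 to 11). Among other protein-coding genes it was 17 CG with a peak (15069 genes) and 12 CG without (695 genes). A peak anywhere along a gene counted, longer genes have more room for one, and gene length was not matched.

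**Figure D1:**
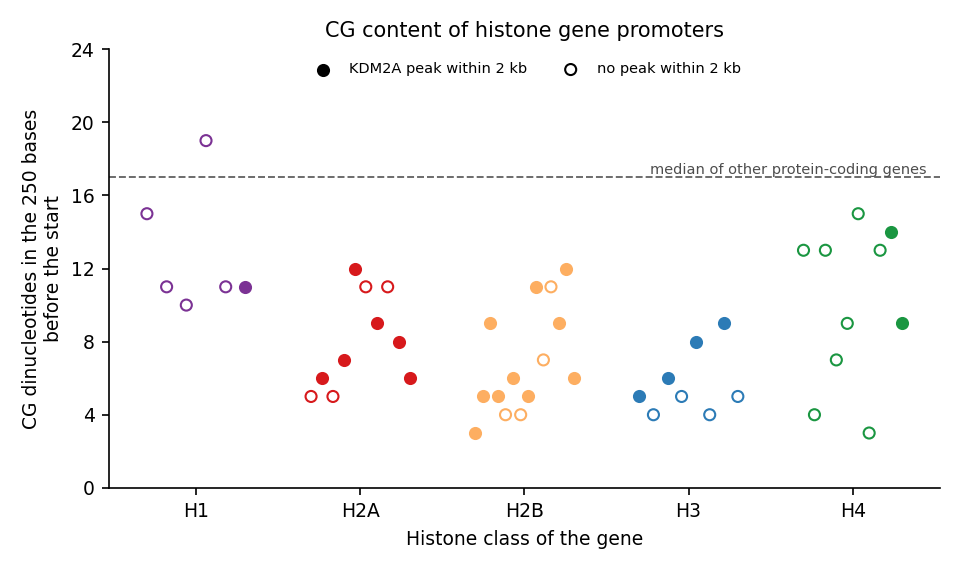
CG dinucleotides in the 250 bases before the start (vertical axis) of 48 histone genes by class (horizontal axis); filled points have a KDM2A peak within 2 kb, open points have none, and the dashed line is the median of other protein-coding genes, 17. Only H1-4, at 19, lies above the line, and filled and open points overlap in the H1, H2A, H2B, H3 and H4 columns.

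KDM2A peaks were placed next, to ask where listed peaks lay relative to the members. Peaks lay near 27 of the histone genes, and almost all of the peaks involved missed a false discovery rate (FDR) of 0.05. The whole list held 502659 peaks on chromosomes 1 to 22 and X, or 170 per Mb, and only 3.08% had an FDR under 0.05. Most of the peaks named below at members are listed entries that miss that limit. A peak lay within 2 kb of 27 of the 53 members, or 50.9% (36.8 to 64.9). The same count was 95.2% for all protein-coding genes, most of which are far longer, and 76.3% for the 1164 other protein-coding genes of at most 2 kb. Those short genes had a median length of 1142.5 bp, against 487 bp in the members, so their search windows were also longer. These 27 members shared 22 distinct peaks, and 9 peaks served more than 1 member, so the genes are not independent counts. Fold enrichment, the authors' own value for the ratio of immunoprecipitate (IP) to local background, had a median of 2.35 over the 22 peaks (range 1.66 to 4.03), against 2.33 over the whole cluster. The pileup, which is how many fragments overlap at the summit, was 6 to 13 with a median of 8. A single peak, 1 of the 22, had an FDR under 0.05, and the next lowest FDR was 0.102. With that limit 1 of 53 members had a peak, against 22.1% of all protein-coding genes and 5.93% of the other short genes. The exact interval of 1 of 53, 0.0478 to 10.1%, holds the 5.93%, so the members are not told from other short genes.

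**Figure D2:**
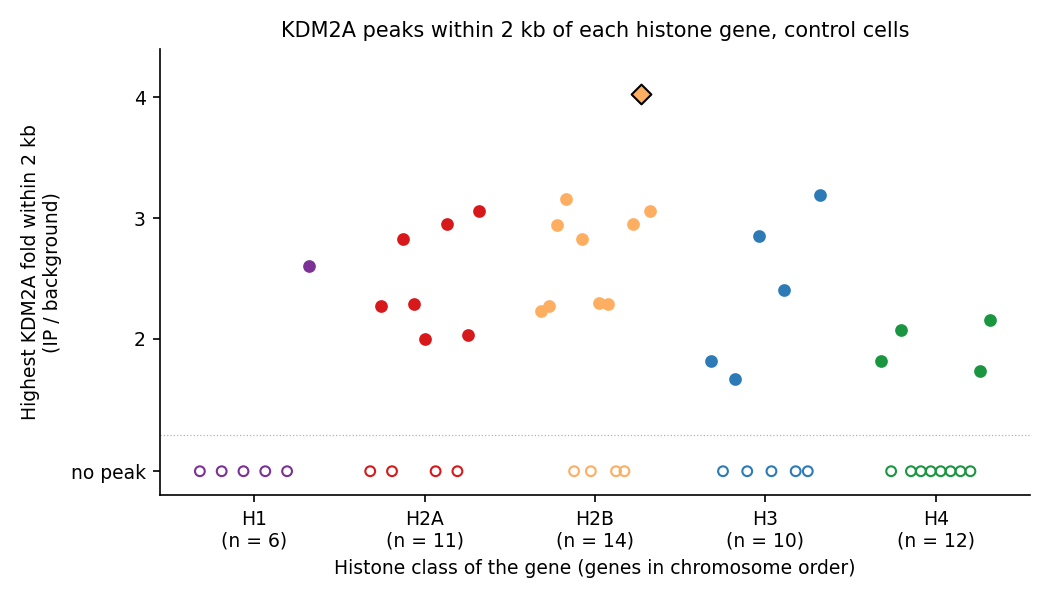
Highest KDM2A fold (IP over background, vertical axis) within 2 kb of each of the 53 histone genes, by class (horizontal axis) and in chromosome order within a class; open points are genes with no peak, and the diamond marks an FDR under 0.05. The diamond is H2BC15 at 4.03; H1 genes have 1 filled point of 6 and H2B genes 10 of 14.

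The share of genes with a peak ran from the H2B genes down to the linker histone genes. A peak lay within 2 kb of 10 of 14 H2B genes (71.4%, 41.9 to 91.6), 7 of 11 H2A genes (63.6%, 30.8 to 89.1), 5 of 10 H3 genes (50.0%, 18.7 to 81.3), 4 of 12 H4 genes (33.3%, 9.92 to 65.1) and 1 of 6 H1 genes (16.7%, 0.421 to 64.1). The intervals of all 5 classes overlap, and differences between classes were not tested. H2A and H2B genes of head-to-head pairs share peaks, so their shares are not independent. No order among the classes is resolved by these numbers.

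Among H2A and H2B genes, the highest fold belonged to H2BC15 (27838569 to 27839110), whose nearest peak (27840532 to 27840805) reached 4.03-fold with an FDR of 0.00471 and a pileup of 13. That peak lay 1422 bp beyond the end of the gene, not at its promoter. H2BC6 (26183761 to 26184230) had a peak inside the gene, 26184051 to 26184227, at 3.15-fold and an FDR of 0.145. The head-to-head pair H2AC17 and H2BC17 shared a peak (27893485 to 27893643, fold 3.05) whose FDR was 0.155 and which lay inside H2BC17 and began 60 bp after its start, just past the promoter printed above. The pair H2AC14 and H2BC14 shared a peak (27813708 to 27814005, fold 2.95, FDR 0.186) that lay 297 bp beyond the far end of H2AC14. H2BC5, a long member of 13229 bp, held peaks of fold 2.58 and 2.95 in its body, beginning 2485 and 8064 bp after its start. The pair H2BC8 and H2AC8 shared a peak of fold 2.82 and FDR 0.273 inside H2AC8. In the pairs H2BC4 with H2AC6 and H2BC11 with H2AC11 the shared peak likewise lay inside the H2A gene, with folds of 2.27 and 2.28.

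Among genes for H3, the histone that carries the mark, the highest fold was 3.19 at H3C12 (27890315 to 27890826), with an FDR of 0.102 and the peak inside the gene. H3C6 had a fold of 2.85 in a peak 520 bp beyond its end. H3C8 had a peak of fold 2.40 beyond its end, 1938 bp away, and one of 2.29 inside the gene. H3C1 and H3C3 had peaks inside the gene with folds of 1.81 and 1.66, both with an FDR of 0.839, the highest of the set, which H4C12 shared. At H4C12 (27831174 to 27831560) the peak at 27831423 to 27831599 spanned the start and reached 137 bp into the gene, with a fold of 1.73. The other H4 genes with a peak nearby were H4C13 (2.16), H4C3 (2.07) and H4C1, which shared the peak of H3C1. The H1 gene with a peak was H1-5, with a fold of 2.60 at 1495 bp.

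No KDM2A peak was listed within 2 kb of 26 members, 5 of them H1, 4 H2A, 4 H2B, 5 H3 and 8 H4 genes. The farthest from any peak were H3C2 at 10336 bp, H2AC4 at 8817 bp, H2BC7 at 7359 bp, H2AC7 at 6650 bp and H4C2 at 6075 bp. Next came H3C7 (5996 bp), H2BC13 (5779 bp), H2AC13 (5041 bp), H3C4 (4650 bp) and H2BC9 (4556 bp), then H3C10, H4C7, H4C9, H4C11 and H1-4 at 3172 to 2891 bp. Both genes of the head-to-head pairs H2AC7 with H2BC7 and H2BC13 with H2AC13 were thus without a listed peak.

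Where peaks lay around the members was uneven, with peaks inside the short coding bodies and few beside them. Of the 53 members, 12 had a peak overlapping the gene itself (22.6%, 12.3 to 36.2), against 90.1% of all protein-coding genes and 45.1% of the other short genes, whose median length is 1142.5 bp. With an FDR under 0.05 it was 0 of 53, against 20.1% of all protein-coding genes and 2.84% of the other short genes. A count of 0 of 53 allows up to 6.72%, so it is not told from the 2.84%. The class counts were 4 H2A, 3 H2B, 4 H3, 1 H4 and 0 H1 genes. Counted by midpoint, peaks inside members of at most 2 kb had a density of 457 per Mb (228 to 818, 11 peaks), and the interval holds the 402 per Mb (370 to 437) inside other short genes. Inside all 53 members, the 5 long ones included, it was 211 per Mb (113 to 361, 13 peaks). In the 2 kb flanks of all members, without the genes, the density was 57.7 per Mb (24.9 to 114, 8 peaks), against 215 per Mb (202 to 229) in the flanks of other short genes. The ratio of these flank densities was 0.268 (0.115 to 0.530), and the comparison was chosen after the values had been seen. With an FDR under 0.05 that ratio was 0.878, on 1 peak beside members and 37 beside the other short genes. The 250 bp upstream of the 48 known starts held 0 midpoints in 9.885 kb, which allows up to 373 per Mb, so it cannot be told from the 317 per Mb of other short genes. The first 500 bp after the start held 10 midpoints, or 425 per Mb (204 to 781), against 510 per Mb (445 to 581). In the 10 members of at most 2 kb with a known start and a peak inside, the midpoint lay 49 to 395 bp after the start (median 284.5 bp). These peaks were picked for overlapping such short genes, so midpoints close after the start largely follow from the choice. Only the peak at H4C12 began before the start.

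**Figure D3:**
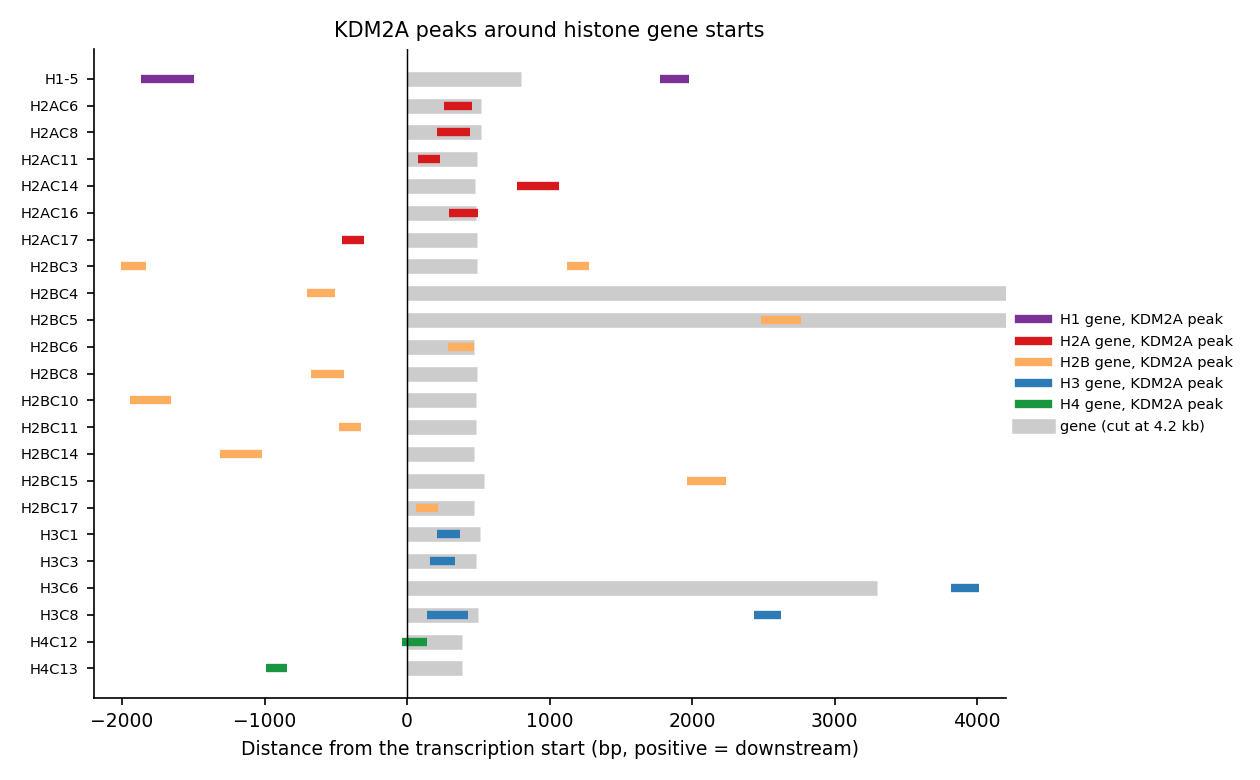
KDM2A peaks (coloured bars) around the start of the 23 histone genes with a known start and a peak within 2 kb, in bp from the start on the horizontal axis, each gene as a grey bar; peaks beyond 4.2 kb are not drawn. Peaks inside short genes sit 49 to 395 bp downstream by midpoint, a range largely set by the short gene lengths. Only the H4C12 peak crosses the start.

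Along the whole cluster KDM2A peaks were about as dense as elsewhere on the chromosome. The 2.1 Mb held 336 peaks, 160.0 per Mb, against 152.0 per Mb in the 500 kb flanks together, a ratio of 1.05 (0.867 to 1.28), and 157 per Mb on chromosome 6. Of 80 adjoining windows of 2.1 Mb on chromosome 6, 34 held more peaks and 45 fewer. Of the cluster's peaks 9 (2.68%) had an FDR under 0.05, against 2.70% on chromosome 6. The histone blocks held 133 peaks per Mb (51 peaks) and the stretches between them 164 per Mb (246 peaks), a ratio of 0.813 (0.589 to 1.103), so a difference was not resolved. By block the density was 117 per Mb in the first, 156 in the second and 177 in the third, on 32, 3 and 16 peaks. Within 2 kb of members it was 105 per Mb (64.9 to 160), against 166 per Mb (148 to 185) in the rest of the cluster, a ratio of 0.633 (0.386 to 0.984), in a comparison also chosen after the values had been seen. That ratio turned to 1.31 when only the 10% of peaks with the highest fold were kept, on 4 and 29 peaks.

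The strongest peaks of the cluster mostly lay outside the histone blocks, as did most of its peaks. The blocks held 51 of the 336 peaks, on 382 of the 2100 kb. The highest fold was 4.10 at 27543178 to 27543496 (FDR 0.00591), 1322 bp from the serine tRNA gene TRS-AGA1-1 and 264 kb from the nearest member. The peak near H2BC15 ranked second. The next had a fold of 4.02 at 25997905 to 25998470 in the noncoding gene LINC02980, 18.6 kb before H1-1. A pair of peaks with a fold of 3.79 lay 18 bp from the arginine tRNA gene TRR-ACG2-2 and 160 bp from the isoleucine tRNA gene TRI-AAT5-3. The sixth, with a fold of 3.48, lay in the pseudogene GUSBP2. The other 4 of the 10 highest, with folds of 3.47 and an FDR of 0.0644, lay in TRIM38 and ZNF322 and 1394 and 6593 bp from the tRNA genes TRS-TGA2-1 and TRV-AAC3-1. This ranking is by fold. The lowest FDR of the cluster, 0.00213, belonged to a peak of fold 3.40 and pileup 20 at 26682342 to 26682532, over the tRNA gene TRA-AGC12-1. Of the 100 tRNA genes 54 had a peak within 2 kb (54.0%, 43.7 to 64.0), against 95.2% of all protein-coding genes and 76.3% of the other short genes. The median length was 73 bp for the tRNA genes and 1142.5 bp for the other short genes, so less sequence was searched around each tRNA gene. In 6 of the 100 a peak had an FDR under 0.05, against 22.1% and 5.93%. Neighbouring tRNA genes, such as TRR-ACG2-2 and TRR-ACG2-3, share peaks, so they are not independent counts. Transfer RNA genes elsewhere were not counted.

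Other protein-coding genes of the cluster had a peak within 2 kb in 17 of 19 cases, but their median length was 11767 bp. Their highest folds were 3.47 at TRIM38, a ubiquitin ligase gene, and at ZNF322, a zinc finger gene, and 3.37 at BTN3A2, 3.23 at BTN2A1 and 3.14 at BTN1A1, all of the butyrophilin family. Histone genes outside the cluster had a peak within 2 kb in 34 of 44 cases. Of these, the 21 with the same kinds of symbol, mostly on chromosome 1, had one in 17 (81.0%, 58.1 to 94.6). The share in the cluster was 27 of 53 (50.9%, 36.8 to 64.9). These intervals overlap, and the difference was not tested. A peak within 2 kb with an FDR under 0.05 was found for 5 of the 21, against 22.1% of all protein-coding genes and 5.93% of the other short genes. Among those 5, H3C14, H2AC18 and H4C15 share 1 peak, so they are not independent counts. The highest folds of the 44 were 4.16 at MACROH2A2, a histone variant gene, and 3.78 in that shared peak. H2AC1 and H2BC1 had none.

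All 14 genes of histone transcription and mRNA processing and all 17 histone chaperone genes had a peak within 2 kb, near the 95.2% of all protein-coding genes. Among the 14 (median length 46147.5 bp), the highest folds were 3.82 at NPAT, the coactivator of histone gene transcription, 3.55 at GON4L and 3.47 at POU2F1, an octamer-binding factor, and in 2 of the 14 a peak passed an FDR of 0.05, against 22.1% of all protein-coding genes. SLBP, which binds the stem-loop of histone mRNAs, had a fold of 2.78. Among the 17 chaperone genes they were 3.75 at ATRX, 3.47 at NAP1L1 and 3.44 at ASF1A, and in 3 of the 17 a peak passed that limit.

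**Figure D4:**
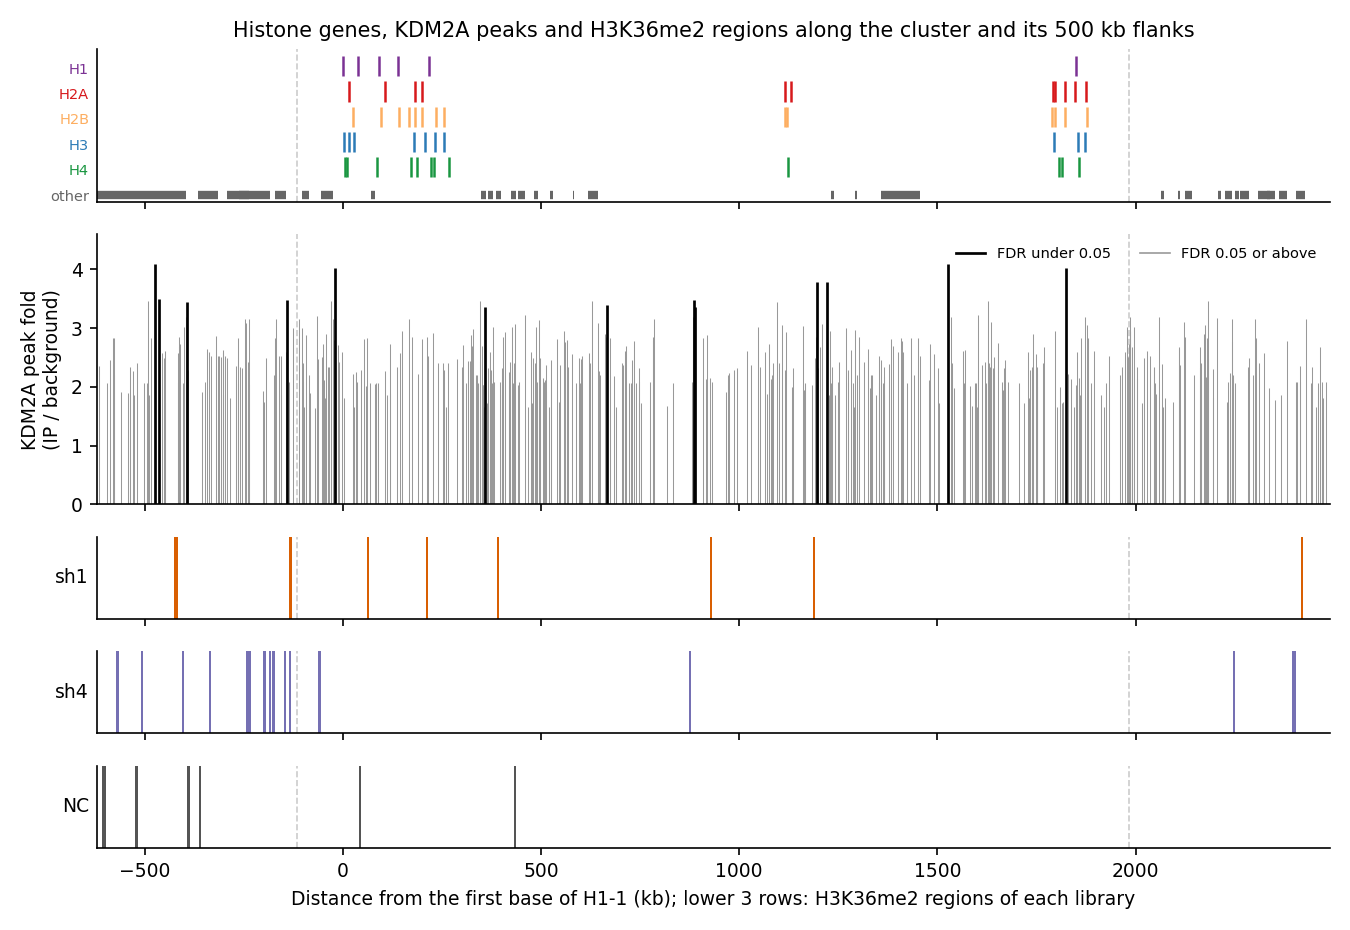
The cluster (between the dashed lines) and its 500 kb flanks, in kb from the first base of H1-1: histone genes by class and other protein-coding genes (top), each KDM2A peak by its fold (second row, black where the FDR is under 0.05), and H3K36me2 regions of sh1, sh4 and control cells (NC), drawn at least 5 kb wide. KDM2A peaks run through blocks and gaps alike, and H3K36me2 regions number 5, 3 and 2 within the cluster in sh1, sh4 and control.

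H3K36me2 was scarce over the histone genes in the sh1, sh4 and control libraries. A region lay within 2 kb of 1 of 53 members in sh1, 0 in sh4 and 1 in control cells. The count was 16.9%, 16.1% and 21.3% of all protein-coding genes in sh1, sh4 and control, but only 1.37%, 1.55% and 1.98% of the other short genes. The share of members (1.89%, 0% and 1.89%) is therefore near that of other short genes, and the 0 in sh4 allows up to 6.72%. Regions covered 0.829% of the cluster in sh1, 0.524% in sh4 and 0.352% in control, against 4.96%, 5.07% and 5.02% of chromosome 6. Of the 79 other windows of that length, 9 in sh1, 10 in sh4 and 3 in control were covered less. Scarcity was not particular to the cluster. In sh1, sh4 and control the window from 28000001 was covered over 2.0, 13.0 and 3.8 kb, and that from 30100001 over 6.2, 5.2 and 18.2 kb. The window from 32200001 had 6.2, 2.6 and 12.4 kb, and the cluster itself 17.4, 11.0 and 7.4 kb. The window before the cluster had more, at 105.8, 146.6 and 121.0 kb.

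H3C6 in sh1 and H1-2 in control cells were the members with a region. In sh1 a region at 26227001 to 26231400 overlapped the end of H3C6 and the KDM2A peak beyond it. Its IP and input read counts, recovered from the deposited fold and p-value, were 150 and 79, a fold of 1.88 (1.42 to 2.50). In control cells a region of 1.4 kb at 26058001 to 26059400 lay 1531 bp from H1-2, with 79 IP and 33 input reads, a fold of 2.36 (1.55 to 3.65). Neither region had a counterpart in the other libraries.

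The other regions of the cluster lay away from histone genes. In sh1 they were at 26077001 to 26079000, 20.5 kb from H1-2 (fold 2.05), in BTN3A1 (1.75), in GUSBP2 (1.68) and at 27202801 to 27208200 over the tRNA gene TRV-CAC6-1 (1.48). In sh4 a pair of regions before TRIM38 had folds of 1.66 and 1.56, and a region over GUSBP2 had 1.63. In control cells the only other region, 6.0 kb wide, lay in BTN3A3 with 253 IP and 166 input reads, a fold of 1.50 (1.23 to 1.84). BTN3A1 was covered over 26.3% of its length in sh1 and BTN3A3 over 45.04% in control, each at 0% in the other libraries. No base of the cluster was shared by any pair of libraries.

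Covered length within the cluster was 17.4 kb in sh1, 11.0 kb in sh4 and 7.4 kb in control, or 2.35 and 1.49 times the control, against 0.926 and 1.102 over chromosomes 1 to 22 and X. These lengths rest on 5, 3 and 2 regions. The ratios of those region counts have intervals of 0.409 to 26.3 for sh1 and 0.172 to 18.0 for sh4, so neither is told from 1. The length ratios also moved with the setting. From the first to the last histone gene with 2 kb on each side, sh4 fell below the control at 0.514, while sh1 stayed at 2.35. With folds above the median of the control list they were 8.57 for sh1 and 4.57 for sh4, and with folds above 2 they were 1.43 and 0. Within the histone blocks regions covered 6.4 kb in sh1, 0 kb in sh4 and 1.4 kb in control.

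**Figure D5:**
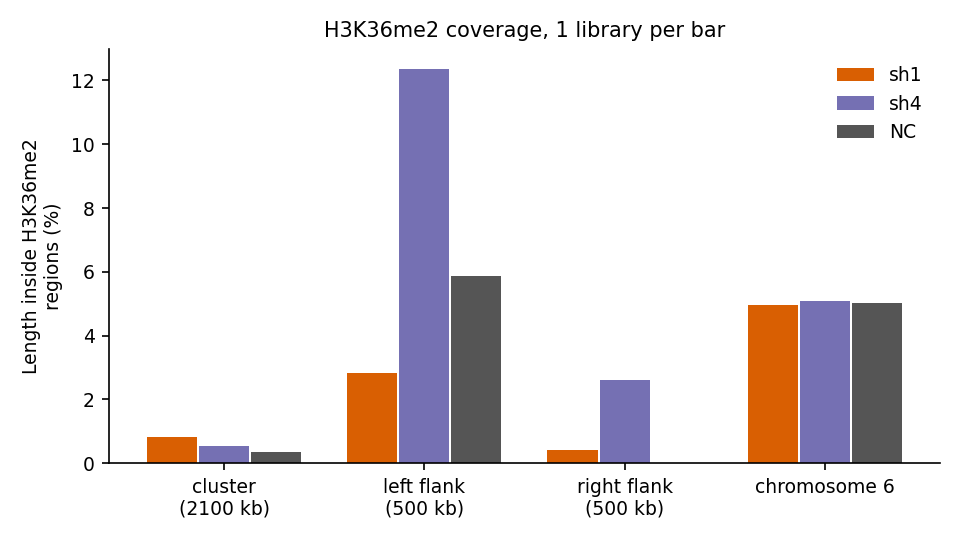
Percent of length inside H3K36me2 regions (vertical axis, from 0) in the cluster, its flanks and chromosome 6 (horizontal axis), 1 library per bar for sh1, sh4 and control cells (NC). The cluster stays under 1% in each library while chromosome 6 is near 5%, and the left flank reaches 12.4% in sh4.

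Coverage in the flanks was uneven between sides and libraries. Regions covered 14.2 kb of the left flank in sh1, 61.8 kb in sh4 and 29.4 kb in control, and 2.0, 13.0 and 0 kb of the right flank. Over both flanks sh1 had 0.551 and sh4 2.54 times the control's length, on 4, 12 and 4 regions, with intervals of 0.186 to 5.37 and 0.909 to 12.8 for the ratios of region counts. With flanks of 1 Mb the length ratios were 0.676 for sh1 and 1.31 for sh4, on 12, 16 and 13 regions. In the left flank the sh4 regions ran over the SLC17 family, genes of anion and phosphate transporters. SLC17A4 was covered over 29.4% of its length, SLC17A1 over 18.0% and SLC17A3 over 12.1% in sh4, and all 3 over 0% in sh1 and in control. The widest were 11.4 kb over SLC17A1 and SLC17A4 (fold 1.31, 1.13 to 1.52), 8.8 kb over CARMIL1 (1.51) and 8.2 kb over SLC17A3 (1.62, 1.34 to 1.96). CARMIL1 begins at 25279374, outside the flank, and was covered in sh1, sh4 and control over 9.91%, 8.32% and 6.57% of its whole length. Within the flank its regions shared no base between libraries, and beyond the flank sharing was not examined. The widest control regions, 10.2, 7.8 and 7.4 kb, lay in or beside CARMIL1.

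The only stretch of the 3.1 Mb found in more than 1 library held histone pseudogenes. Regions at 25882001 to 25887800 in sh1 (fold 1.50, 176 IP and 116 input reads) and 25880001 to 25886400 in sh4 (fold 1.44, 229 and 157 reads) shared 4.4 kb over the pseudogenes H2AC3P and H2BP5. Control cells had no region there. In the right flank the sh4 region at 28262001 to 28264000 had the highest fold of the cluster and flanks, 2.73 (1.81 to 4.19), 1043 bp from NKAPL, and a region of 11.0 kb overlapped ZSCAN23, a zinc finger gene. That 11.0 kb region covered only 1.82% of ZSCAN23. In sh1 the 2.0 kb region of the right flank lay in ZSCAN23, over 9.05% of its length, and shared no base with the sh4 region.

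Histone genes of a class can be alike in coding sequence, which was not compared here. How reads shared between copies were counted is not given in the sources used here. Values inside single members are therefore uncertain, as is the peak over the H4C12 promoter, whose sequence is nearly the same at H4C11. Members also share peaks, and H3C4 with H2AC7 and H2BC12 with H4C9 overlap as genes.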

How the data were processed

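The authors deposited 1 peak list per IP library, 4 of the 8 libraries, and the inputs were not analysed here. Without assigning roles, the submitters' processing notes list SICER, MACS2, Bowtie 1.1.2, GRCh38 and hg38. Per the file headers, each entry has a fold enrichment (a ratio), a p-value and an FDR. The H3K36me2 lists also have a score and the KDM2A list a pileup signal, per the file headers. The score was not used. H3K36me2 regions lie on a grid of 200 bp with starts counted from 0, so 1 was added to both ends. No read total was available for KDM2A, so its depth is unknown.

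Genes and promoter sequences came from RefSeq (GRCh38.p14), and 679 genes listed out of position order on alternate or unplaced sequences were left out. A gene had a peak or region if 1 bp overlapped the gene with 2 kb on each side. Densities used peak midpoints. Intervals are exact binomial, Poisson or conditional binomial at 95%. H3K36me2 read counts were recovered from fold and p-value under a Poisson model. Among the first 1500 regions of each list with a usable p-value, 100% of IP counts and of input counts came out whole within 0.01. In those the median region held 150 IP and 90 input reads in sh1, 178 and 107 in sh4 and 165 and 102 in control. The overlap and recovery steps were tested on simulated data. Named genes were the members with the highest folds, up to 15 without a peak, and the leading genes of fixed lists. Members and lists were chosen with earlier results of these data known. Python 3.11.15, numpy 2.4.6, pandas 2.3.3 and scipy 1.17.1 were used.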

Additional observations from a re-analysis of the deposited data

Results flagged for a closer look

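In the left flank of the histone cluster, and over both flanks together, sh1 had less H3K36me2 covered length than the control and sh4 more. The left flank ratio to the control was 0.483 in sh1 and 2.10 in sh4, and over both flanks it was 0.551 in sh1 and 2.54 in sh4. The right flank did not show this order, with 2.0 kb in sh1, 13.0 kb in sh4 and 0 kb in control. With flanks of 1 Mb the ratios were 0.676 in sh1 and 1.31 in sh4. The difference between the hairpins was not tested, because each is 1 library.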

How the results depend on the processing

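The number of histone genes with a KDM2A peak within 2 kb, 27, was 1 with an FDR under 0.05, 5 with the 10% of peaks of highest fold, 16 within 500 bp and 45 within 5 kb. The 12 members with a peak inside the gene became 0 with an FDR under 0.05. The density near members over the rest of the cluster, 0.633, turned to 1.19 with an FDR under 0.05 (1 and 8 peaks) and to 1.31 with the peaks of highest fold. With an FDR under 0.05 the blocks over the stretches between them gave 0.560 and the flanks of members over those of other short genes 0.878, each on 1 peak of the members. The cluster over its flanks, 1.05, gave 0.827 with the peaks of highest fold and 0.952 with flanks of 1 Mb, both on the other side of 1. With regions of a fold above 2, the cluster held 1 region in sh1, 0 in sh4 and 1 in control, the covered length over control was 1.43 in sh1 and 0 in sh4, and 0 members had a region in sh1. Keeping folds above the median of the control list left control with 1 region and gave length ratios of 8.57 in sh1 and 4.57 in sh4. From the first to the last histone gene, sh4 held 1, and its length ratio turned to 0.514 (1.49 reported). With flanks of 1 Mb the flank ratios were 0.676 in sh1 and 1.31 in sh4. Within 10 kb, 4 members had a region in sh1, and within 500 bp 0 had one in control. The causes were not tested. No paired analysis was possible because each group is 1 library. The comparisons of peaks inside, beside and near the genes were added after seeing the data.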
